A study of Mus musculus with 1183 samples.

Results

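The genes described are 3 cytokines of type 2 immunity (Il4, Il5 and Il13), 2 receptor chains for them (Il4ra and Il13ra1), the growth factor gene Areg and the arginase gene Arg1. They were chosen by symbol, with earlier results of these data known, and all 7 were found among the 18072 rows of the count table. The table holds reads per gene for 1183 single cells of distal lung, taken from mice on postnatal day 7. All of the cells came from animals treated with hyperoxia, a raised oxygen level, and no animal kept at normal oxygen was analysed here, so no effect of oxygen was estimated. The labels name 1 female animal (598 cells) and 1 male animal (585 cells), which are the 2 replicates, and give no strain or genotype. Sex and animal cannot be told apart. CD45, which marks the surface of leukocytes, was the sort gate for 1173 of the cells, and 10 came from other gates.

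The labels divide the cells into 16 subtypes, and the genes were followed across those labels. It is likely that the labels were drawn from the expression of the cells themselves. Within an animal, the reads of all cells with 1 label were added up, and levels are given as CPM, the reads of a gene scaled to the total of that sum. The 15 labels with at least 5 cells in each animal gave 30 such sums. Where 2 values are given for 1 label, the female comes first and the male second. The sums held from 6024429 to 235566546 reads, and single cells held from 16753 to 7560179, with a median of 1100966. The label Mac I has 1 cell, from the male, with 3 reads of Il13ra1 and 0 of the other 6 genes. Gene lengths were not used, so levels are compared between labels for 1 gene and never between genes.

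Type 2 immunity is the arm of the immune response known from allergy, parasitic worm infection and tissue repair. Interleukin 4 and interleukin 13 share a receptor built from the chains IL-4Rα and IL-13Rα1, interleukin 4 also signals through IL-4Rα with the common γ chain, and both pathways lead to the factor STAT6. Interleukin 5 supports eosinophils. Mast cells, basophils, type 2 innate lymphoid cells and T helper cells are known sources of these cytokines. Amphiregulin, encoded by Areg, is a ligand of the epidermal growth factor receptor that innate lymphoid cells release during repair of the lung. Arginase 1 breaks down arginine and is best known as a gene that macrophages raise in response to interleukin 4 or 13, and it is also made by type 2 innate lymphoid cells of the lung.

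Il4, Il13 and Il5 lie close together on chromosome 11 in mice, and Il4 and Il13 had the most alike pattern of any pair of the 7 genes. The 250 bases before the start site of these 3 genes and of Areg are therefore shown, from RefSeq on build GRCm38.p6, written 5′ to 3′ on the strand of the gene. Capitals in the first 3 mark the word GGAAA, the core bound by NFAT factors, and the words bound by GATA factors, on either strand. Those are AGATAA with its variant AGATAG, and the same with a T first, TGATAA or else TGATAG. In Areg the capitals mark TGACGTCA, the word bound by CREB factors.
Il4, chr11:53618666-53618915, minus strand: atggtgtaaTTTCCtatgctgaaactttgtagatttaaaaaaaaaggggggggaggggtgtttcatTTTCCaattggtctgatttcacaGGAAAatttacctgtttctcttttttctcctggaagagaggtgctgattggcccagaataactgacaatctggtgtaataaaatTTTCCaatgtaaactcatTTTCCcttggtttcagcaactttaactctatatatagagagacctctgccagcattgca
Il13, chr11:53634703-53634952, minus strand: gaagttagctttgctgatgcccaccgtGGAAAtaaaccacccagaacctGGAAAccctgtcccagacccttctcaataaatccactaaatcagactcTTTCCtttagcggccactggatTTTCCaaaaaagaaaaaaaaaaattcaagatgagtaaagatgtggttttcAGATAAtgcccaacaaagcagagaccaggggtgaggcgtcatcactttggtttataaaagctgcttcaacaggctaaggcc
Il5, chr11:53720544-53720793, plus strand: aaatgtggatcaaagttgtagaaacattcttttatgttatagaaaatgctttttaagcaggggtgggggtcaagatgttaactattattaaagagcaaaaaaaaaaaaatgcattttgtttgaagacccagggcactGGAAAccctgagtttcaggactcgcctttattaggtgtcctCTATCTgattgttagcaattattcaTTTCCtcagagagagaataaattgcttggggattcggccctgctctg
Areg, chr5:91139349-91139598, plus strand: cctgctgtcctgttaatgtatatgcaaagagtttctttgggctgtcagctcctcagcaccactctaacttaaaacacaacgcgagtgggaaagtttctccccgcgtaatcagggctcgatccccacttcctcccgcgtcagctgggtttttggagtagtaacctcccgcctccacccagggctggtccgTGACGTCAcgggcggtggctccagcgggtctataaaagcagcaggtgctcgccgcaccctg
RefSeq sequence was matched for 6 of the 7 genes. The Il4 window held 5 copies of GGAAA or its complement, and 0.390% of the 32851 windows of this length held at least 5. The Il13 window held 4 copies, and 1.59% of windows held at least 4. The Il5 window held 2, and 55.6% of windows held at least 1. A GATA word stood 81 bases before the start of Il13 and 72 bases before that of Il5, and 26.5% of windows held at least 1. None was found in the Il4 window shown. A second annotated start of Il4, with the window chr11:53617339-53617588, has a TGATAG 80 bases before it and 0 copies of GGAAA or its complement. TGACGTCA stood 61 bases before the start of Areg and occurred in 1.55% of windows. These are matches of letters, not measured binding.

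Reads of Il4 came almost wholly from mast cells and basophils, the granulocytes that carry the high-affinity IgE receptor. Mast cells held 50.7% of the 97589 reads of the gene and basophils 44.5%. In basophils Il4 stood at 490.0 and 979 CPM (735 ± 346.1, SD, n = 2), and in mast cells at 487 and 703 CPM (595 ± 152.6, SD, n = 2). The ranges of both labels overlapped, and no other label overlapped with either. The third label in order, the IL cell, had 0 and 327.9 CPM, and 86.4% of its reads came from 1 cell. Among cells of the CD45 gate alone, both labels showed Il4 on every plate. Basophils had 291.97 and 599 CPM on the female plates and 878 and 1096 CPM on the male plates, and mast cells 501, 474, 664 and 730 CPM in the same order. The female plate 1 carries another code in its cell names than the other CD45 plates, taken here as another sequencing run.

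**Figure D1:**
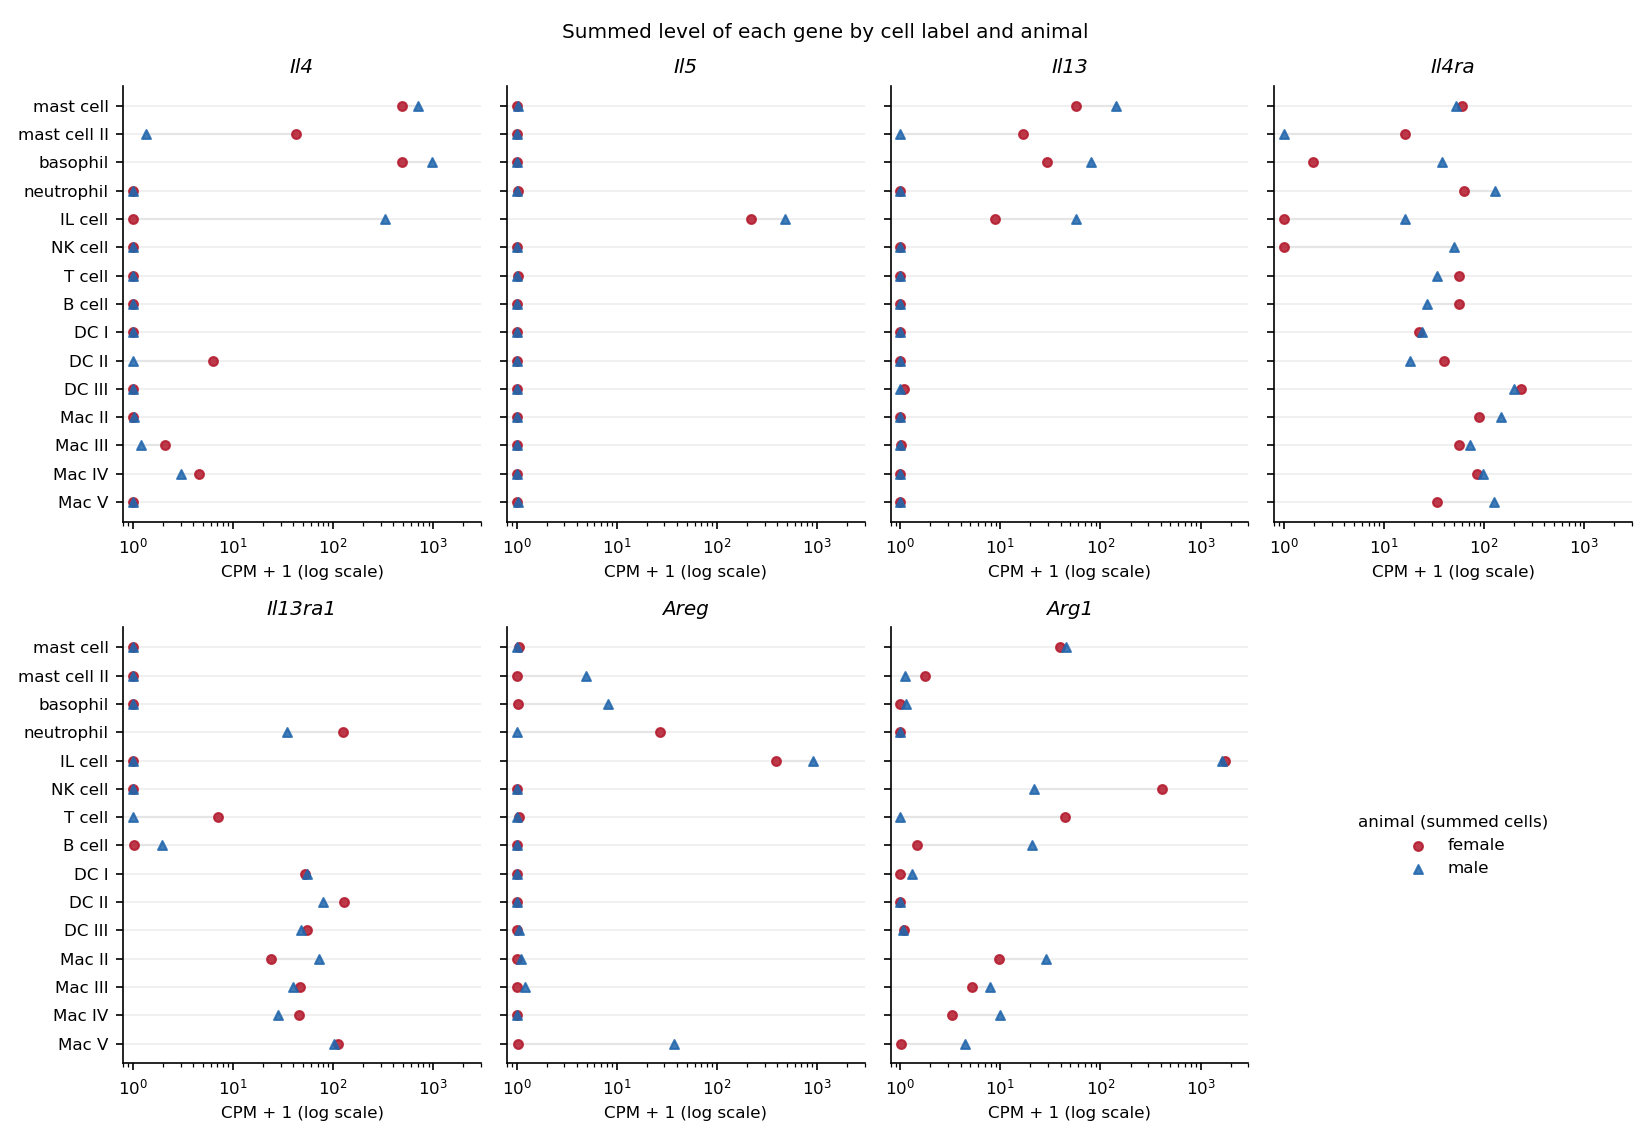
Level of each gene in each label, with the female animal as circles and the male as triangles. The x axis is CPM + 1 on a log scale, each point is the sum of the cells of 1 animal and label, and a grey line joins the animals. Il4 and Il13 stand highest in basophils and mast cells, Il5, Areg and Arg1 in IL cells, Il4ra in DC III, and Il13ra1 is at 0 in mast cells, mast cell II, basophils, IL cells and NK cells.

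Most single mast cells and basophils carried Il4. To set all cells at 1 depth, 100000 reads were drawn at random from each, and a cell was counted as positive with at least 5 reads of a gene. By that count 35 of 39 mast cells of the female (89.7%, exact 95% interval 75.8% to 97.1%) and 19 of 20 of the male (95%, 75.1% to 99.9%) were positive for Il4. Among basophils 29 of 34 (85.3%, 68.9% to 95.05%) and 15 of 19 (78.9%, 54.4% to 93.9%) were positive. Without thinning the shares were 92.3% and 100% in mast cells and 88.2% and 89.5% in basophils. T cells had a median depth of 1399827 and 1052877 reads per cell, beside 1070058 and 1467588 in mast cells, and 0 of their 46 cells of both animals had a read of Il4, which by the rule of 3 counts allows up to 6.52% of cells with a read. Intervals and limits cover counting error only, and the reads carry no molecular identifiers.

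The amount per cell varied widely within these labels. The median basophil had 343.3 and 406 CPM of Il4, the highest 3300 and 6795 CPM, and the lowest 0 in both. In mast cells the medians were 397 and 682 CPM and the highest cells 1920 and 2839 CPM, with lowest values of 0 and 37.98 CPM. Of the 19 male basophils 7 were at 1000 CPM or more, against 3 of 34 in the female.

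Il13 followed the same labels. Mast cells held 65.2% of its 11260 reads, basophils 26.3% and IL cells 5.18%. The level in mast cells was 55.8 and 141.4 CPM (98.6 ± 60.5, SD, n = 2), and in basophils 28.3 and 79.6 CPM (53.9 ± 36.3, SD, n = 2), so that the labels overlapped. IL cells had 7.93 and 56.6 CPM, with 78.9% of the reads from 1 male cell of 170 CPM, and overlapped with basophils too. By plate, mast cells of the CD45 gate had 37.2, 69.04, 79.9 and 183.2 CPM and basophils 6.89, 40.1, 61.997 and 99.95 CPM, in the order female 1, female 2, male 1, male 2.

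Fewer cells passed the count for Il13 than for Il4. In mast cells 16 of 39 (41.03%, 25.6% to 57.9%) and 8 of 20 (40%, 19.1% to 63.9%) were positive, and in basophils 5 of 34 (14.7%, 4.95% to 31.1%) and 5 of 19 (26.3%, 9.15% to 51.2%). Without thinning the shares were 58.97% and 65% in mast cells and 41.2% and 42.1% in basophils. The median mast cell had 14.4 and 17.4 CPM, and the highest 553 and 868 CPM. In 59 mast cells of both animals 22 of the 24 cells positive for Il13 were also positive for Il4, 32 had Il4 alone and 3 neither. In 53 basophils 6 of the 10 cells positive for Il13 also had Il4, 38 had Il4 alone and 5 neither.

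**Figure D2:**
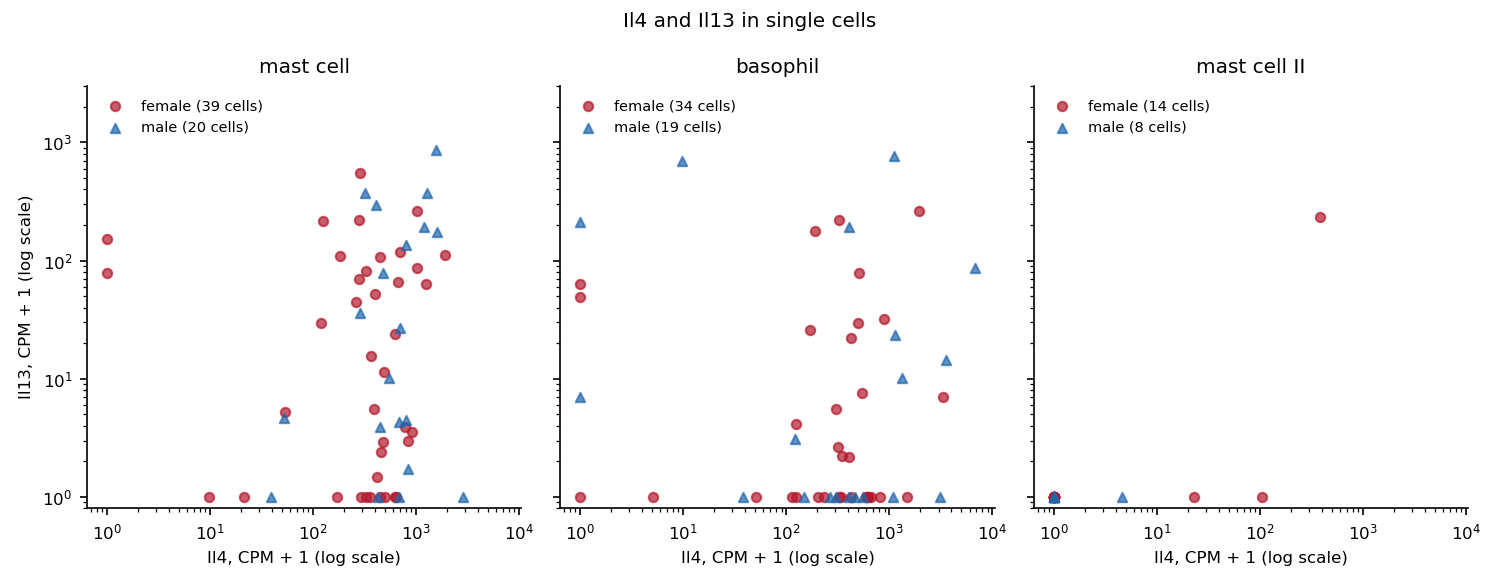
Il4 (x axis) and Il13 (y axis) in each mast cell, basophil and cell labelled mast cell II, as CPM + 1 on log scales, by animal. Most mast cells and basophils lie above 100 on the Il4 axis and spread over the Il13 axis, and 1 cell labelled mast cell II carries both genes.

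The label mast cell II lacked most of both genes. Its Il4 level was 41.4 and 0.340 CPM, with 63.5% of the reads from 1 cell, and its Il13 level was 15.7 and 0 CPM, all from that same female cell. Only 2 of 22 cells were positive for Il4 (9.09%, 1.12% to 29.2%). The mast cell proteases Tpsb2 and Mcpt4 were at 0 in this label in both animals and Cma1 at 2.49 and 54.6 CPM, against 80934 and 86808 CPM of Cma1 in mast cells. Kit, the receptor for stem cell factor, was at 274.8 and 284.5 CPM. IL cells had 247.7 and 197.8 CPM of Kit as well. With the proteases at or near 0, mast cell II is used here only as the name of the label.

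Small amounts of Il4 were also read in macrophages. Mac IV had 3.53 and 2.06 CPM, with 47.1% of the reads from 1 cell, and Mac III 1.09 and 0.212 CPM. At least 1 read was seen in 9.52% and 7.59% of Mac IV cells (6 cells in each animal) and in 7.14% and 6.73% of Mac III cells (13 and 14 cells). In each animal 1 of these cells held a read of a mast cell or basophil protease, a single read. In Mac V 1 of 66 and 0 of 45 cells had a read of Il4, and no B cell or neutrophil had one.

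Nearly all reads of Il5 came from 1 label. IL cells held 99.9% of its 7091 reads, at 217.3 and 476 CPM (346.6 ± 182.8, SD, n = 2), and every other label was at 0.0434 CPM or less in both animals. The label IL cell covers 14 cells, 9 of the female and 5 of the male, and is not spelled out in the labels. Of the 14 cells 5 of 9 (55.6%, 21.2% to 86.3%) and 3 of 5 (60%, 14.7% to 94.7%) were positive for Il5, with and without thinning. The 8 positive cells had 192.9 to 1002 CPM and the other 6 had 0. The level was 426 and 153.7 CPM on the female plates and 617 CPM on the first male plate, and the second male plate had 1 such cell, with none.

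Markers of type 2 innate lymphoid cells were checked in this label. Gata3, the transcription factor of these cells, was higher than in any other label at 3943 and 3116 CPM, and so was Rora at 493 and 636 CPM. Il1rl1, the receptor for interleukin 33, was highest in mast cells and Il7r, the receptor for interleukin 7, in T cells. IL cells had 98.8 and 253.6 CPM of Il1rl1 and 433 and 576 CPM of Il7r. By cell, 12 of 14 had Gata3 at 50 CPM or more and 11 had at least 3 of the 4 markers at that level. The T cell marker Cd3e was at 24.1 and 0.121 CPM in the sums and Cd3g at 988 and 623 CPM. Cd3e reached 50 CPM in 2 female cells, of which 1 also carried the interleukin 17 gene Il17a at 2519 CPM. Neither had a read of Il5. Without these 2 cells the level of Il5 was 362.9 CPM over the animals and the positive share 66.7% of 12 cells.

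Areg, the growth factor, was also highest in IL cells. They held 81.4% of its 16202 reads, at 394 and 904 CPM (649 ± 360.8, SD, n = 2), without overlap with any other label. The next labels each rested on 1 cell. Mac V had 0.0239 and 36.5 CPM with 99.8% of the reads from 1 cell, neutrophils 25.8 and 0 CPM with 99.9% from 1 cell, and basophils 0.0405 and 7.22 CPM with 97.2% from 1 cell. Of all cells 12 were positive for Areg and 8 of them were IL cells, 4 of 9 (44.4%, 13.7% to 78.8%) and 4 of 5 (80%, 28.4% to 99.5%). The 8 cells had 266.2 to 2070 CPM.

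Arg1 stood highest in IL cells as well, and by a wide margin over the macrophages. Its level there was 1771 and 1652 CPM (1711 ± 84.2, SD, n = 2), which is 73.2% of its 53770 reads. By cell 8 of 9 (88.9%, 51.8% to 99.7%) and 4 of 5 (80%, 28.4% to 99.5%) were positive, with a median of 1754 and 2141 CPM. The level on the female plates was 3391 and 1278 CPM and on the male plates 1383 and 2555 CPM. One of the 2 cells with Cd3e, the cell with Il17a, had 1442 CPM of Arg1, and the other 9.92 CPM.

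Macrophage labels held little Arg1. Mac II had 8.75 and 27.8 CPM, Mac IV 2.28 and 8.87 CPM, Mac III 4.17 and 6.83 CPM, and Mac V 0.0120 and 3.48 CPM. The positive cells were 4 in Mac II (8.51%), 4 in Mac IV (2.82%) and 9 in Mac III (2.31%). Without thinning these shares were 14.9%, 2.82% and 4.87%. All of the 4 labels lay below mast cells, which had 38.7 and 43.9 CPM from 5 positive cells of 59. The single cells that carried it had up to 445 CPM in Mac III and 738 CPM in mast cells.

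The NK cell label was second in order for Arg1, at 411 and 20.7 CPM. It covers 12 cells and its reads came from 4 of them, 3 of the female at 2804, 634 and 272.9 CPM and 1 of the male at 238.3 CPM. These 4 cells had Gata3 at 436 to 2762 CPM and Rora at 328.99 to 566 CPM, 0 reads of Il1rl1, at most 0.697 CPM of Il7r and 0 reads of the granzyme gene Gzma. The killer cell receptor gene Klrk1 was at 50 CPM or more in 3 of them, Klrb1c in 2, Ncr1 in 1 and Cd3e in 1. Of the 8 cells without Arg1, 4 carried Gzma, at up to 37961 CPM, and at 50 CPM or more 4 had Gata3 (up to 3547 CPM) and 3 had Rora (up to 842 CPM). The T cell markers Cd3e and Cd3g were at 304.7 and 173.1 CPM and at 710 and 1421 CPM in the sums of this label, and their part in the result was not tested. T cells had 43.4 CPM of Arg1 in the female, from 1 cell, and 0 in the male.

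**Figure D3:**
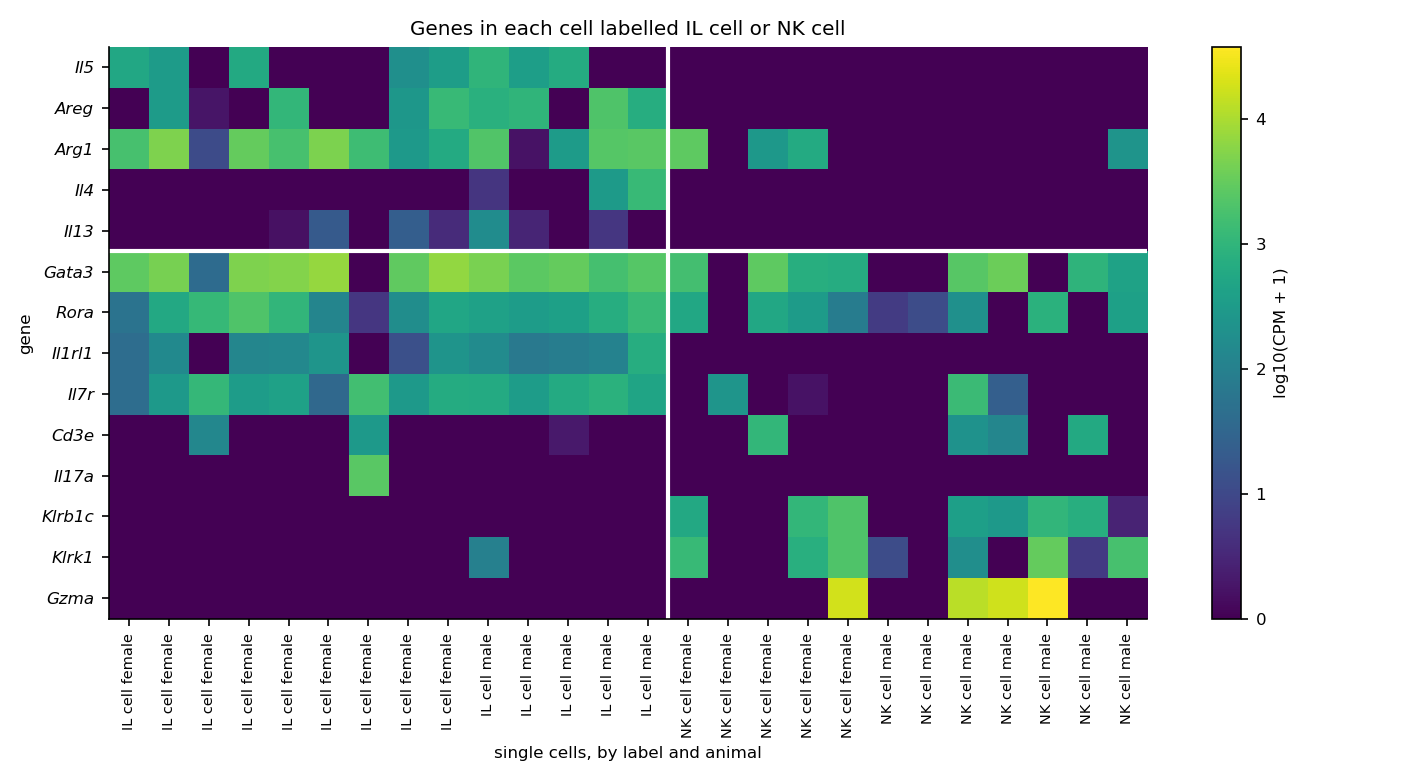
Each column is 1 cell labelled IL cell or NK cell, each row a gene, and the colour is log10(CPM + 1). The 5 rows above the white line are genes of the study set and the 9 below are markers. Il5 and Areg reach 50 CPM in 8 IL cells each, Arg1 in most IL cells and in 4 NK cells that lack Gzma.

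Within the IL cells the genes were spread over overlapping sets of cells. Of 14 cells 5 were positive for both Il5 and Areg, 3 for Il5 alone, 3 for Areg alone and 3 for neither. Arg1 was positive in 7 of the 8 Il5 cells and in 7 of the 8 Areg cells. Il4 was positive in 2 male cells, at 310 and 1236 CPM, and both had Areg, at 2070 and 714 CPM, Arg1 at 2353 and 2555 CPM, and 0 reads of Il5. The 1 cell positive for Il13 had Il5 at 1002 CPM, the highest of all, and Areg at 818 CPM. With 14 cells from 2 animals these are counts of cells and no test was made.

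Il4ra, the chain that interleukins 4 and 13 share, was spread over many labels. Its 93662 reads came from 550 cells, with 30.2% from Mac III and 20.6% from Mac IV. By level DC III, which had the mature dendritic cell markers Ccr7 (6862 CPM), Fscn1 (2039 CPM) and Ccl22 (1897 CPM) highest of all labels, stood first. It had 230.8 and 196.7 CPM (213.8 ± 24.2, SD, n = 2), above every other label in both animals. Mac II followed at 86.9 and 146.8 CPM, neutrophils at 61.7 and 127.1 CPM, Mac IV at 83.9 and 95.4 CPM, Mac V at 32.9 and 125.2 CPM and Mac III at 55.3 and 71.01 CPM. From Mac II downwards each label overlapped with the next. Mast cells had 58.8 and 51.4 CPM, T cells 54.6 and 32.5 CPM and B cells 54.5 and 25.98 CPM. DC II had 38.6 and 17.3 CPM and DC I 21.1 and 23.2 CPM, and mast cell II stood last at 15.2 and 0 CPM. The levels in basophils (0.951 and 37.4 CPM), IL cells (0 and 15.4 CPM) and NK cells (0 and 48.97 CPM) came from 1 cell for 93.4%, 99.2% and 98.6% of their reads.

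By cell DC III also stood first. Over both animals neutrophils and Mac V, above Mac III and mast cells by mean level, were below both by share of cells. This did not hold in each animal for Mac V. Its female level lay below both, and its male share lay above that of male mast cells. In DC III 7 of 11 (63.6%, 30.8% to 89.1%) and 9 of 11 (81.8%, 48.2% to 97.7%) were positive for Il4ra, and the level on the CD45 plates was 188.1, 260.7, 153.5 and 236.1 CPM, with 2 cells on the second female plate. In Mac IV 39.7% and 43.04% of cells were positive, in Mac II 33.3% and 50%, in Mac III 28.7% and 34.1%, and in mast cells 33.3% and 25%. Without thinning these were 58.7% and 63.3% in Mac IV, 59.3% and 70% in Mac II, 46.7% and 53.8% in Mac III, and 46.2% and 40% in mast cells. Mac V had 13.6% (9 of 66, 6.43% to 24.3%) and 27.3% (12 of 44, 14.96% to 42.8%). Neutrophils had 9.09% and 20.5%, with a median depth of 616659 reads per cell in the female and 571915 in the male, and without thinning 10.7% and 25.6%. All 18 mast cells positive for Il4ra were also positive for Il4, as were both positive basophils. Most cells of these labels were positive for Il4, 54 of 59 mast cells and 44 of 53 basophils. A link between the genes was not tested.

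Il13ra1, the second chain of the interleukin 13 receptor, was read mainly in the macrophage, dendritic cell and neutrophil labels. Its 58061 reads came from 529 cells, 32.6% of them from Mac III and 24.1% from Mac V. Mac V, which had 3 of 4 monocyte markers (Plac8, Ly6c2 and Ace) highest of all labels and the fourth, Ccr2, second to basophils, stood first at 111.7 and 100.8 CPM (106.3 ± 7.72, SD, n = 2). DC II, with Cd209a, Mgl2 and Clec10a highest but Sirpa highest in Mac III, followed at 128.96 and 78.1 CPM. Neutrophils had 124.01 and 33.6 CPM, and Mac V, DC II and neutrophils overlapped. One cell gave 32.1% of the reads in DC II and 24.3% in neutrophils. A read was seen in 18 of 56 and 20 of 78 neutrophils, beside 40 of 66 and 22 of 45 Mac V cells. DC I had 51.4 and 53.98 CPM, DC III 53.5 and 46.3 CPM, Mac II 22.9 and 71.4 CPM, Mac III 46.3 and 39.2 CPM and Mac IV 44.9 and 27.2 CPM, each overlapping with the next. T cells had 6.10 and 0 CPM, all from 2 female cells, which were both positive after thinning. B cells had 0.0194 and 0.959 CPM.

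Mast cells, mast cell II, basophils, IL cells and NK cells had 0 reads of Il13ra1 in either animal. By the same rule of 3 counts, 0 of 59 mast cells allow up to 5.08% of cells with a read. For 0 of 53 basophils and 0 of 14 IL cells the limits are 5.66% and 21.4%. Of the 11 NK cells kept after thinning 0 were positive, which allows up to 27.3% of positive cells. In Mac V 24 of 66 (36.4%, 24.9% to 49.1%) and 15 of 44 (34.1%, 20.5% to 49.9%) were positive, in DC II 45.5% and 42.9%, in Mac III 27.6% and 26.4% and in Mac IV 20.6% and 16.5%. Without thinning Mac III, at 56.04% and 61.5%, stood above Mac V, at 51.5% and 40%, and Mac IV had 36.5% and 44.3% and DC II 63.6% and 64.3%. The order of Mac V and Mac III thus turned with the thinning. The plates of Mac V differed, with 95.6 and 120.1 CPM on the CD45 plates of the female and 181.2 and 48.5 CPM in the male.

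Both receptor chains were seen in the same cell in a part of the macrophages. In Mac III 8.74% of cells (34 cells) were positive for both, 89 cells for Il4ra alone and 71 for Il13ra1 alone. In Mac IV 11.3% (16 cells) were positive for both, in Mac V 10% (11 cells), in Mac II 6 of 47 and in DC III 3 of 22. A cell without 5 reads after thinning may still carry the message, so these counts are lower limits of the cells with both.

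Genes with the most alike pattern were found for each gene over the 30 sums, among 8127 genes with at least 50 CPM in a label, as Pearson's r of log2(CPM + 1). The sums share 2 animals and 15 labels and are not independent, so r describes the likeness and has no test. For Il4 these were Il13 (r = 0.94), Gnaz (0.873), a G protein subunit, and Fcer1a (0.844), the α chain of the IgE receptor. Il13 had Il4 (0.94), Tuba8 (0.929) and Gnaz (0.871). Il5 had Stab2 (0.999), Ccdc184 (0.993) and Nmur1 (0.990), the neuromedin U receptor, all 3 highest in IL cells at 362.3, 222.5 and 104.9 CPM. Outside the IL cells Il5 was at 0.0434 CPM or less, so its r rests on the 2 sums of that label. Areg had Il5 (0.849), Stab2 (0.848) and Ccdc184 (0.839), and Arg1 had Ccr8 (0.896), a chemokine receptor, Tnfsf11 (0.804) and Ptpn13 (0.803). Il13ra1 was most like Bcl2a1a (0.915), Mpeg1 (0.913), the perforin 2 gene of phagocytes, and App (0.899). Il4ra had the weakest likeness of the 7, with Nbr1 (0.735), Gpr137b (0.728) and Fam168a (0.728).

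Differences between labels were then tested with edgeR over 15600 genes in 7 comparisons of related labels, with the animal as the replicate, and a gene was called at a Benjamini-Hochberg adjusted p under 0.05. All 7 genes entered the fit. Il5 had at most 2 reads in any label but the IL cell, so it passed the filter on low read counts only through the IL cells. Its calls restate the levels given above and are not separate support for them. Calls describe how labelled classes differ. For a single value compared between 2 animals and 2 animals an exact permutation test cannot give a p below 0.333, so none was run.

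IL cells were compared with T cells, another class of lymphocyte. Il5 was called higher in IL cells, at 217.3 and 476 CPM against 0.0270 and 0 CPM in T cells (log2 fold change 14.09 ± 3.01, SE, adjusted p = 0.0479). It was the 1 gene of 7 called, where 1.13% of all genes were called. T cells held 1 read, so the ratio of the sums was 18998 with a counting interval of 3409 to 750498, and the fitted value depends on edgeR's prior count. With the animal as a block the adjusted p was 0.0787. It was 0.0804 with each cell given equal weight and 0.177 within the run shared by both animals. A fit without 1 of the 4 sums keeps 1 animal in a label and takes its spread from the other labels. Such fits cannot decide whether the call holds. Areg, at 394 and 904 CPM against 0.0540 and 0 CPM, had an adjusted p of 0.166, and Arg1, at 1771 and 1652 CPM against 43.4 and 0 CPM, 0.261. Il4 and Il13 had 0 reads in T cells and were at least 2423-fold and 521-fold higher in IL cells over both animals, against 3 reads over the T cells, with adjusted p = 0.101 and 0.132. The animals overlapped for Il4, which had 0 reads in the female IL cells. Most of those reads came from 1 cell each. Il4ra was 8.22-fold higher in T cells and Il13ra1 at least 28.1-fold higher, and neither was called (adjusted p = 0.684 and 0.151). DESeq2 did not call Il5 (adjusted p = 0.0754) and called the 5 genes Il4, Il13, Il13ra1, Areg and Arg1, where it called 12.3% of all genes.

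Basophils were compared with IL cells, both known as sources of interleukin 13. Of the 7 genes 2 were called, both higher in IL cells, where 4.29% of all genes were called. They were Il5, at 0.0202 and 0 CPM in basophils (log2 fold change -13.86 ± 3.01, SE, adjusted p = 0.0257), and Arg1, at 0 and 0.152 CPM in basophils (-14.06 ± 3.52, SE, adjusted p = 0.0293). The ratio of the sums was 21492 for Il5 (3856 to 849010), from 1 read in basophils, and 39772 for Arg1 (13608 to 192865), from 3 reads. Fits without 1 of the 4 sums again keep 1 animal in a label, so they cannot decide whether these calls hold. Within the shared run the adjusted p was 0.0724 for Il5 and 0.0864 for Arg1. DESeq2, which called 19.2% of all genes, gave 0.0609 and 2.8e-08. Il4 was 5.29-fold higher in basophils over both animals without overlap (adjusted p = 0.579), Il13 was 1.67-fold higher with overlap (0.832), and Areg 277.8-fold lower (0.287).

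Basophils against mast cells had 0 genes of the 7 called, where 1.71% of all genes were called, and the labels overlapped for Il4 and Il13. Il5 had 1 read in each label and Il13ra1 had 0, so for them no call was possible. The log2 fold change was 0.53 ± 2.16 (SE, adjusted p = 1) for Il4 and -0.64 ± 2.18 (SE, adjusted p = 0.992) for Il13. Arg1 had the lowest p of the 7, at 0.0071 before and 0.136 after adjustment, with 3 reads in basophils against 3605 in mast cells, and DESeq2, which called 13.8% of all genes, called it (adjusted p = 0.0011). Il4ra was 4.99-fold higher in mast cells without overlap (adjusted p = 0.867).

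The cells labelled mast cell II were compared with mast cells, and 0 of 7 genes were called, where 0.788% of all genes were called. Il5 had at most 1 read in either label and Il13ra1 had 0, so for them no call was possible. Il4 was 18.4-fold lower in mast cell II over both animals without overlap (log2 fold change -5.69 ± 2.63, SE, p = 0.0472, adjusted p = 0.368). Arg1 was 68.2-fold lower (p = 0.0150, adjusted p = 0.271), and DESeq2, which called 9.32% of all genes, called it (adjusted p = 0.0160). Il13 was 7.21-fold and Il4ra 5.14-fold lower, both without overlap and with adjusted p of 0.480 and 0.488.

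Among the macrophage labels 0 of 7 genes were called in each of 3 comparisons. Il5 and Il13 had at most 2 reads in any of these labels, so for them no call was possible. The share of all genes called was 0.263% for Mac III against Mac IV, 0.442% for Mac III against Mac V and 0.167% for Mac IV against Mac V. Before adjustment 0, 0 and 2 of the 7 were under 0.05, the 2 being Il4 (p = 0.0241) and Areg (p = 0.0109) in Mac IV against Mac V. Il13ra1 was 2.54-fold higher in Mac V than in Mac III and 3.07-fold higher than in Mac IV over both animals, each without overlap (adjusted p = 1 and 0.904). In a fit of the 2 labels alone Il13ra1 was called between Mac III and Mac V (log2 fold change -1.40 ± 0.26, SE, adjusted p = 0.0382), where that fit called 9.23% of all genes. Arg1 was 4.49-fold lower in Mac V than Mac III without overlap (adjusted p = 1). Il4ra differed by 1.03-fold to 1.42-fold in the 3 comparisons, and the animals went opposite ways in both comparisons with Mac V.

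**Figure D4:**
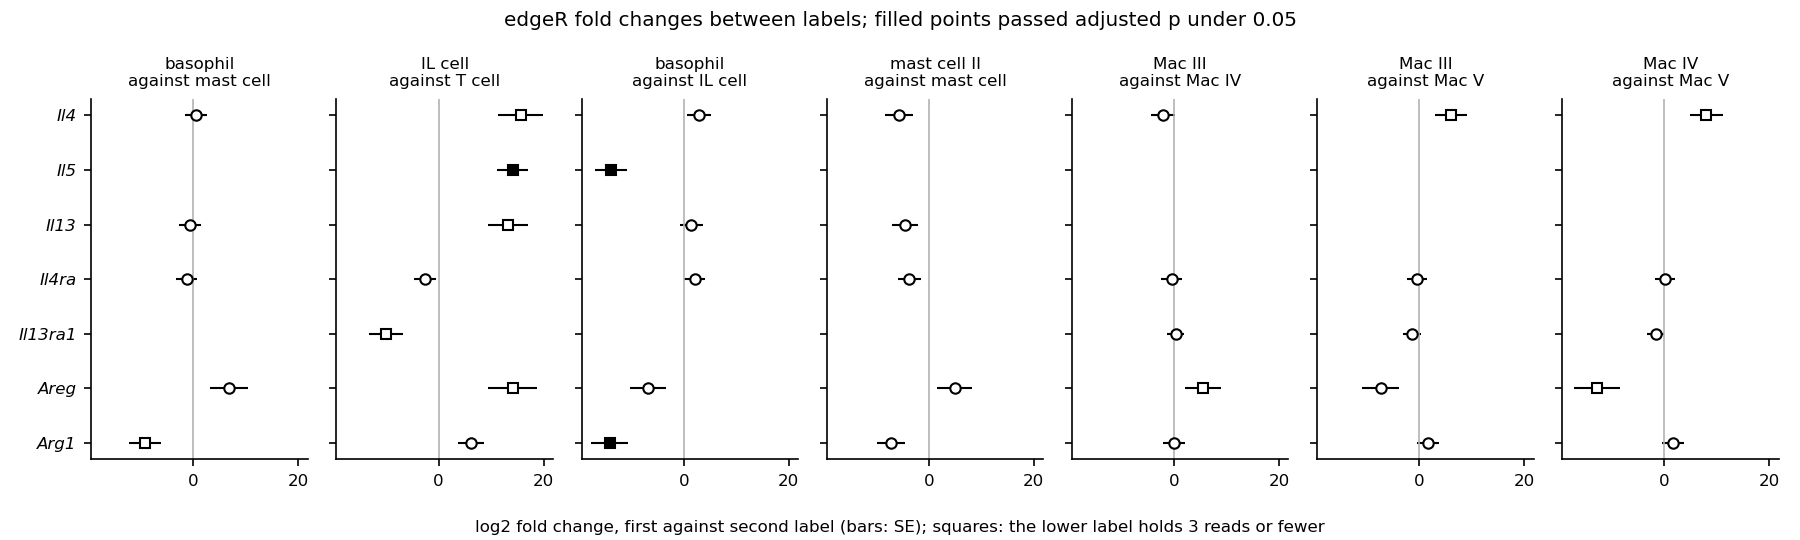
Fitted log2 fold change of each gene in the 7 comparisons, first label against second, with the SE as a bar. Filled points passed an adjusted p under 0.05, squares mark genes with 3 reads or fewer in the lower label, whose fitted size depends on the prior count, and genes with 3 reads or fewer in both labels are left out. Il5 and Arg1 in comparisons with IL cells are the 3 filled points.

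The other genes of these pathways were described in 6 lists of 81 genes, of which 76 were in the table. Of 10 cytokines and alarmins, 6 were in the table and 5 were tested. Between basophils and IL cells 1 was called higher and 1 lower, where 4.29% of all genes were called, and 0 were called in the other 6 comparisons, where 0.167% to 1.71% of all genes were. Il6, at 3064 and 5111 CPM in basophils, was higher there than in IL cells (0 and 0 CPM), and Csf2, the granulocyte-macrophage growth factor gene, was higher in IL cells (761 and 241.1 CPM) than in basophils (0 and 0 CPM). Il33 and Tslp, alarmins that act on innate lymphoid cells, had at most 11.4 and 29.8 CPM in any sum of these sorted cells. The median log2 fold change of the list was -1.33 between basophils and IL cells, beside 0.00 over all genes, with genes at 0 reads set to their bound. It was farthest from 0 between Mac III and Mac IV, at -7.74 beside 0.00, where 0 of the 5 genes were called. That median rests on 5 genes, some of them at low levels. Tslp had 9.76 and 29.8 CPM in Mac IV, its highest label, and Il10 had 4.21 and 0.00848 CPM there.

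The calls named in these lists had adjusted p from 0.000148 (Csf2rb, basophils against IL cells) to 0.0489 (Maf, Mac III against Mac V) in edgeR.

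Of 12 receptor chains and signalling partners 11 were tested. The share of all genes called was 4.29% between basophils and IL cells, 1.13% between IL cells and T cells and 1.71% between basophils and mast cells. Csf2rb and Csf2rb2, β chain genes of the interleukin 3 receptor, were called higher in basophils (1919 and 2086 CPM, and 754 and 445 CPM) than in IL cells, which had 0 of both. Csf2rb was called lower in IL cells than in T cells (12.1 and 6.20 CPM). Jak2, a kinase of these receptors, was called higher in basophils (242.2 and 222.5 CPM) than in mast cells (5.76 and 18.2 CPM). In the other 4 comparisons 0 were called, where 0.167% to 0.788% of all genes were. The common γ chain gene Il2rg was highest in IL cells at 1133 and 1142 CPM, as was Cish, a feedback inhibitor of cytokine signals, at 880 and 826 CPM. The median of the list between basophils and IL cells was 0.36, beside 0.00 over all genes. It was farthest from 0 between mast cell II and mast cells, at -1.28 beside 0.00.

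Of 17 alarmin receptors and transcription factors all were tested. Between basophils and IL cells 2 were called higher and 5 lower, where 4.29% of all genes were called. Gata2, the GATA factor of basophils and mast cells, was at 2942 and 3049 CPM against 0 in IL cells, and Il1rap, a chain of the interleukin 33 receptor, at 39.97 and 23.4 CPM against 0. Lower in basophils were Bcl11b (230.3 and 541 CPM in IL cells), Icos (64.1 and 192.6 CPM), Il2ra (196.3 and 105.5 CPM) and Maf (149.9 and 137.9 CPM), each at 0.305 CPM or less in basophils. The fifth, Id2, is named after its values were seen, at 114.4 and 45.04 CPM in basophils against 3138 and 3290 CPM in IL cells. Between IL cells and T cells, where 1.13% of all genes were called, 2 were called higher and 0 lower, Id2 and Il1rl1, also named after their values were seen. Id2 was the 1 gene called lower in basophils than in mast cells, where 1.71% of all genes were called. It was also the 1 called lower in mast cell II than in mast cells, where 0.788% were. Maf was lower in Mac III (0.325 and 1.21 CPM) than in Mac IV (720 and 729 CPM) and Mac V (79.4 and 53.3 CPM), Bhlhe41, named after its values were seen, was above Mac V in Mac III (453 and 628 CPM against 0.872 and 1.24 CPM), and 0 were called between Mac IV and Mac V. The share of all genes called was 0.263% for Mac III against Mac IV, 0.442% for Mac III against Mac V and 0.167% for Mac IV against Mac V. The median of the list was -1.17 between basophils and IL cells, beside 0.00 over all genes. It was farthest from 0 between mast cell II and mast cells, at -2.13 beside 0.00.

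Of 13 genes of the epidermal growth factor receptor family, its ligands and their release, 11 were tested and 1 was called, between basophils and IL cells, where 4.29% of all genes were called. Rhbdf2, which helps the protease ADAM17 to mature, was higher in basophils (74.8 and 35.7 CPM) than in IL cells (0.0690 and 0 CPM). Adam17, the protease that sheds amphiregulin, had 132.1 and 92.1 CPM in Mac V, its highest label, and Hbegf, another ligand, 43.2 and 62.3 CPM in IL cells. The median was 0.00 between basophils and IL cells, as over all genes. It was farthest from 0 between Mac III and Mac IV, at -1.64 beside 0.00. Of 12 genes of arginine transport and metabolism all were tested and 0 were called in any of the 7 comparisons. The share of all genes called was 0.167% to 4.29% there, so a count of 0 among 12 genes says little. Arg2, the second arginase, was highest in neutrophils at 199.1 and 163.9 CPM, and the arginine transporter Slc7a2 in Mac III at 639 and 667 CPM. With genes at 0 reads at their bound, the median of this list was 0.90 between Mac IV and Mac V, the farthest from 0 of the 7, beside 0.02 over all genes.

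The last list held 17 genes known to rise with interleukin 4 or 13 in macrophages and dendritic cells, all of them tested. Mgl2, a lectin gene, was called higher in Mac IV (66.3 and 68.05 CPM) than in Mac III (0.0143 and 0.00425 CPM) and in Mac V (0.0120 and 0 CPM). The mannose receptor gene Mrc1, named after its values were seen, was called higher in Mac III (916 and 969 CPM) and Mac IV (1361 and 1628 CPM) than in Mac V (0.574 and 3.50 CPM). Thus 2 genes were called higher in Mac IV than in Mac V, 1 in Mac III over Mac V and 1 lower in Mac III against Mac IV, of 17 genes tested, where 0.167%, 0.442% and 0.263% of all genes were called. Pparg was called higher in IL cells (57.5 and 35.9 CPM) and Egr2 higher in basophils (115.1 and 117.8 CPM), each against 0 in the other. Fn1, named after its values were seen, was called higher in basophils (21.6 and 18.045 CPM) than in IL cells and mast cells. Between basophils and mast cells Klf4 was called higher in basophils, at 0 and 42.2 CPM with all of its reads in the male, and Clec10a lower (0.0202 and 0.102 CPM against 63.2 and 122.1 CPM), and Tfec was lower in IL cells (0 and 0 CPM) than in T cells (13.9 and 2.29 CPM). Between mast cell II and mast cells 0 were called, where 0.788% of all genes were. The share of all genes called was 4.29% between basophils and IL cells and 1.71% between basophils and mast cells. Between IL cells and T cells it was 1.13%. The median of the list was 2.59 between Mac IV and Mac V, beside 0.02 over all genes. Pparg and Tfec also stood high in macrophages, with Pparg at 209.5 and 160.3 CPM in Mac III and Tfec at 191.2 and 170.6 CPM in Mac II.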

How the data were processed

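The authors deposited 1 table of read counts per gene and cell, not normalized. The submitters' processing notes name STAR 2.5.2b, HTSeq 0.10 and the build GRCh38, which is a human build, without their roles, and per the labels' protocols libraries were made from sorted single cells in plates with Tn5. The members and lists were chosen with earlier results of these data known. Counts were summed per animal and label and tested with edgeR 4.0.16 (TMM scaling, filterByExpr, quasi-likelihood F test, 15 labels in 1 fit, Benjamini-Hochberg adjustment over 15600 genes) in R 4.3.3, with DESeq2 1.42.0 as an alternative. Scripts were tested on simulated data. Cell shares were counted after thinning to 100000 reads, which left out 5 cells, with exact Clopper-Pearson 95% intervals. Genes were named by a rule: the 7 genes, the 3 most alike genes of each, and up to 6 genes a list, called genes first. Genes marked as named after their values were seen fall outside this rule. Both animals gave each of the 15 labels tested, so these are paired by animal. Deviations of the sums of 1 animal correlated from -0.06 to 0.081 over 105 pairs of labels (median 0.028). The 2 animals are the only replicates. In the main fit the p-values rest on a spread between their sums that was estimated over all 15 labels together. They do not measure the spread within the 2 compared labels alone.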

Additional observations from a re-analysis of the deposited data

Results flagged for a closer look

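Il4ra differed in opposite directions in the 2 animals in comparisons with Mac V. On the scale of log2(CPM + 1), Mac III was higher than Mac V by 0.73 in the female, while the male difference was -0.81. Mac IV was higher than Mac V by 1.32 in the female, and the male difference was -0.39. The difference between the animals was not tested.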

How the results depend on the processing

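Of the 7 genes, the number called between IL cells and T cells was 1, Il5. It was 0 with the animal as a replicate block, 0 with cells of equal weight and 0 within the shared sequencing run. In a fit of these labels alone it was 2, and with DESeq2 it was 5, without Il5. Between basophils and IL cells it was 2, and 0 within the shared run and 1 with DESeq2. Fits with 1 sum left out cannot decide these calls, because a label then keeps 1 animal. DESeq2 called 1 gene each for basophils against mast cells, mast cell II against mast cells, Mac III against Mac IV and Mac IV against Mac V, and the fit of 2 labels alone called 1 for Mac III against Mac V. The replicate block changed no other call of the 7 genes. The share of cells with Il4 in basophils, 83.02%, was 66.04% at 20 reads. That of Il13 in mast cells, 40.7%, was 59.3% at 1 read, 13.6% at 20 reads and 61.02% without thinning. Il4ra in DC III, 213.8 CPM, was 250.04 as a mean over cells, 189.4 over the coverage column and 171.04 without the top cell, and its share of 72.7% was 90.9% at 1 read and 45.5% at 20. Il13ra1 in Mac V, 106.3 CPM, was 93.002 over coverage and 89.5 without the top cell, and its share of 35.5% was 47.3% at 1 read, 23.6% at 20 and 46.8% without thinning. Arg1 in IL cells, 1711 CPM, was 1374 over coverage, 1377 without the top cell, 1465 in the shared run and, in an alternative chosen after seeing the data, 1805 without the 2 cells with Cd3e. In the order basophil-mast cell, IL-T cell, basophil-IL cell, mast cell II-mast cell, Mac III-IV, Mac III-V and Mac IV-V, the percent of all genes called was 1.71, 1.13, 4.29, 0.788, 0.263, 0.442 and 0.167. With DESeq2 it was 13.8, 12.3, 19.2, 9.32, 2.81, 5.17 and 5.26, within the shared run 0.641, 0.132, 1.63, 0.363, 0.0595, 0.178 and 0.0462, with cells of equal weight 2.86, 1.04, 5.47, 1.19, 1.06, 1.5 and 0.717, and with the compared labels alone 2.62, 0.423, 1.92, 2.77, 12, 9.23 and 4.37. With 1 sum left out it was 0.587 to 1.04, 0.289 to 0.749, 1.75 to 3.11, 0.198 to 0.372, 0.00603 to 0.103, 0.0965 to 0.138 and 0 to 0.0423. RLE scaling moved the median log2 fold change of all genes from -0.28 to -0.04 for IL against T cells, from 0.07 to 0.29 for Mac IV against Mac V, from -0.15 to -0.27 for basophils against mast cells, from -0.13 to 0 for mast cell II and from 0.00 to -0.13 for Mac III against Mac IV. It changed the split of Mac IV against Mac V from 15 higher and 11 lower to 15 and 7. In the same order, the percent of calls that were higher was 42.3, 16.9, 63.1, 17.9, 19.5, 29 and 57.7, with DESeq2 29.3, 24, 56.8, 35.2, 30.8, 64.7 and 79.6, and with the compared labels alone 55.6, 39.5, 69.4, 20.6, 44, 43.2 and 52.7. So the larger side turned for Mac III against Mac V with DESeq2 and for basophils against mast cells with those labels alone. It also turned for Mac IV against Mac V with the replicate block (44.1), for basophils against mast cells without the male basophils (60.2), for Mac III against Mac V without the female Mac III (52.9) and for Mac III against Mac IV without either Mac III sum, where 2 and 1 genes were called. With 1 sum left out a label keeps 1 animal, and its spread comes from the other labels. The cause of these changes was not tested.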
